A study of Homo sapiens with 36 samples.

Results

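MHC class I antigen presentation was followed through 9 genes in 36 cultures of 4 human prostate cancer (PCa) cell lines. These genes, HLA-B, HLA-C, HLA-E, B2M, TAP1, TAP2, TAPBP, PSMB9 and NLRC5, were found by their symbols among the 27852 gene symbols of the table, and all transcripts carrying a symbol were added up. C4-2 and C4-2B are related lines used as osteoblastic PCa (BPCa), and DU145 and 22Rv1 are lines used as osteolytic PCa (LPCa). Each line was grown for 5 days in 4 ways. A line had 3 mono-cultures and 2 cultures beside MG63, and with RANKL at 50 ng/mL a further 2 mono-cultures and 2 cultures beside RAW264.7. MG63 is a human osteosarcoma line that stood for osteoblasts (OBs), and the mouse macrophage line RAW264.7 stood for precursors of osteoclasts (OCs). RANKL, here the recombinant mouse protein, is the cytokine that drives such precursors to become OCs. Partner cells and PCa cells sat in neighbouring wells behind a 0.6 µm filter, so that soluble factors and vesicles could pass and cells could not. RNA was taken from the PCa well. Nothing in the labels says that libraries with the same treatment came from separate cultures started on separate days, so p-values measure the spread between these libraries only.

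MHC class I molecules show peptides from inside the cell to CD8+ T cells and to natural killer cells. Proteasomes cut proteins into peptides, and PSMB9 is one of the catalytic subunits that turn the standard proteasome into the immunoproteasome. TAP1 and TAP2 form the transporter that carries the peptides into the endoplasmic reticulum, and TAPBP (tapasin) holds the empty class I molecule at that transporter. There the peptide is loaded on a heavy chain, such as HLA-B, HLA-C or HLA-E, which is stable at the cell surface only with the light chain B2M. NLRC5 is the transactivator of these genes, and interferon gamma raises them, in part through the factor IRF1.

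Total counts were 23932472 to 36719047 in the 12 mono-cultures without RANKL and 9593426 to 15418211 in the other 24 libraries. Mono-cultures were thus 2.46 times deeper at the median than the other cultures, and depth and treatment cannot be told apart in a comparison with them. For that reason MG63 co-cultures are also set against the mono-cultures with RANKL, which were of like depth but differ from them in RANKL as well. One library, the second MG63 co-culture of DU145, stood apart from the other 35. Its mean GC content per counted transcript was 51.4% against 49.1% to 50.1%, and 13.0% of its counts lay on retained-intron or processed transcripts against 8.40% to 10.8%. That share also moved with treatment. It was 10.4% to 10.7% in C4-2, 10.4% to 10.8% in C4-2B, 10.1% to 10.5% in 22Rv1 and 9.57% to 9.76% in DU145 without treatment, and with MG63 9.25% to 9.43%, 9.75% to 9.76%, 8.93% to 8.99% and, in the first DU145 co-culture, 9.12%. It was also lower in each line with RANKL or RAW264.7, at 8.40% to 9.61%, and the mean length per counted transcript was lower in every treated library than in all mono-cultures of its line. The part of either in the results was not tested. This library also enters the spread that the fits share across lines, so leaving it out changed calls in other lines as well. The members' calls without it are given with each comparison that used it. The epithelial keratin KRT8 was at 230 to 268 CPM, a count scaled to a common library size, in the mono-cultures of C4-2, C4-2B and 22Rv1 and at 615 to 639 CPM in DU145. KLK2, a kallikrein secreted by luminal prostate epithelium, was at 141 to 1422 CPM in the first 3 lines and at 1.05 to 2.68 CPM in DU145. The sum of 7 luminal markers fell with MG63 and with RANKL in C4-2 and C4-2B and rose in 22Rv1. In C4-2B it was 7634 to 8075 CPM in mono-culture, 5730 to 5977 with MG63 and 4858 to 4896 with RANKL. In DU145 it was 1048 to 1081 CPM, 874 to 1470 with MG63 and 1768 to 1770 with RANKL. Its part in the results was not tested.

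All members but B2M and NLRC5 lie in the MHC region on the short arm of chromosome 6. On GRCh38 (GENCODE 29), HLA-E runs from 30489467 to 30494205, HLA-C from 31268749 to 31272130, HLA-B from 31269491 to 31357188, TAP2 from 32821833 to 32838780, TAP1 from 32845209 to 32853978, PSMB9 from 32844136 to 32859585 and TAPBP from 33299694 to 33314387. HLA-E and PSMB9 are on the plus strand and the other 5 on the minus strand. B2M lies on chromosome 15 from 44711487 to 44718877 and NLRC5 on chromosome 16 from 56989485 to 57083531, both on the plus strand. The HLA-B record overlaps HLA-C, and the PSMB9 record overlaps TAP1. The start sites of TAP1 and PSMB9 used for the promoters below are 488 bases apart and point away from each other.

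RefSeq promoter windows, from 250 bases before to 50 after the start site on GRCh38.p14, were matched for 7 of the 9 members, and none for HLA-E and NLRC5. The windows of 5 members are shown because these members, all called higher with MG63 in C4-2, differ in the letters known from interferon- and NF-kB-responsive promoters. Capitals mark, on either strand, a pair of GAAA with 2 bases between (the letters of the interferon-stimulated response element, ISRE) and GGG and CC with 5 bases between (those of NF-kB), and each sequence is given 5′ to 3′ on the strand of its gene.

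B2M, chr15:44711267-44711566, plus strand: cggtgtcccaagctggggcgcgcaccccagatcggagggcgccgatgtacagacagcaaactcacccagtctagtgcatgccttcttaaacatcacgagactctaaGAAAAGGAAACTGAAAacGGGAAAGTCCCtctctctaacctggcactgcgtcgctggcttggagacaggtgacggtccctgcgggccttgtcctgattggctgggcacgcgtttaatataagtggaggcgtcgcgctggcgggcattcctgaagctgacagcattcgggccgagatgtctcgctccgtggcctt

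TAPBP, chr6:33314029-33314328, minus strand: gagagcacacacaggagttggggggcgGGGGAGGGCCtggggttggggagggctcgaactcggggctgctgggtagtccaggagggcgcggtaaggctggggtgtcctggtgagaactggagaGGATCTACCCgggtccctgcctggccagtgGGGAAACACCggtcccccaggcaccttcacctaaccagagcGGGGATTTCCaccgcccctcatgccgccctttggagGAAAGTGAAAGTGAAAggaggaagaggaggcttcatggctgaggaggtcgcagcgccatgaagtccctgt

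TAP1, chr6:32853655-32853954, minus strand: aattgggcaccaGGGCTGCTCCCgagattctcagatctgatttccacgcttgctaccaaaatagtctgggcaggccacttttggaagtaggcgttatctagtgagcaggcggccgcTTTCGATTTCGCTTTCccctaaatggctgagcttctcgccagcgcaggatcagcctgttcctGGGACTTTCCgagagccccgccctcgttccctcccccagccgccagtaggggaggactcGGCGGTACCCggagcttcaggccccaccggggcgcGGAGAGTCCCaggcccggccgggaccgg

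PSMB9, chr6:32853942-32854241, plus strand: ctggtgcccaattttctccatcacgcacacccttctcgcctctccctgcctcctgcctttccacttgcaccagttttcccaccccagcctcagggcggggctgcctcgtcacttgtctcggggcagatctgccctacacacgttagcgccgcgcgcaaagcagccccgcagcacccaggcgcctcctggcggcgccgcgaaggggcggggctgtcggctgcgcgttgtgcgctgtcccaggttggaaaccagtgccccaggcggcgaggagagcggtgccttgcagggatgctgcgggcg

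HLA-B, chr6:31357130-31357429, minus strand: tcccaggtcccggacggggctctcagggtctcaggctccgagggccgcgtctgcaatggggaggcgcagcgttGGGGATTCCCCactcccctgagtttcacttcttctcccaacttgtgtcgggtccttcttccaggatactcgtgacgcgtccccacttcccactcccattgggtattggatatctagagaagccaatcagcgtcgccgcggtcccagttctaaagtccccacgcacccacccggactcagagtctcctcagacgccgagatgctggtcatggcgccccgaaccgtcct

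The ISRE letters occurred in 3.57% of 35116 RefSeq promoter windows, and in those of TAP1, TAP2, TAPBP and B2M among the 7 members with a window. In B2M the matches begin 144 and 138 bases before the start site and overlap, and in TAPBP they begin 20 and 14 bases before it. In TAP1 overlapping matches begin 134 and 128 bases before the start site and in TAP2 there is 1 match, 58 bases before it. A second window of TAP1, from 32852712 to 32853011 on the minus strand of chromosome 6, held no ISRE letters and had the NF-kB letters 55 and 39 bases before its start site. The NF-kB letters are loose and occurred in 58.7% of all windows, among them 6 of the 7 members' windows, PSMB9 being the one without. The Y box letters ATTGG occurred in 34.6% of all windows, and 3 or 4 times in those of HLA-B and HLA-C. Neither HLA-B nor HLA-C held the ISRE letters in this window. PSMB9 had the Y box letters once and neither the ISRE nor the NF-kB letters. A match of letters is a description of the window and not a bound site.

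In mono-culture the 4 lines differed most in this pathway by the place of DU145 and by the low heavy chains of 22Rv1. The level of HLA-B was 314, 307 and 319 CPM in DU145, 31.1, 32.1 and 32.3 in C4-2, 27.6, 34.2 and 31 in C4-2B and 3.11, 3.44 and 3.09 in 22Rv1. HLA-C stood at 327, 319 and 345 CPM in DU145, 125, 126 and 124 in C4-2, 124, 129 and 126 in C4-2B and 14.1, 16.1 and 15.7 in 22Rv1. The classical heavy chains thus fell into 3 steps with no overlap, DU145 over the C4-2 pair over 22Rv1. HLA-E, the non-classical heavy chain read by natural killer cells, was at 67.5 to 76.7 CPM in DU145 and between 11.4 and 16.6 CPM in the other lines. B2M was at 1205, 1224 and 1268 CPM in DU145 and between 319 and 397 CPM in the others, so that 22Rv1 (386 to 397) was as high in the light chain as C4-2B (375 to 392).

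The transporter and loading genes had the same highest line. TAP1 was at 36.4 to 40.4 CPM in DU145 and 8.44 to 10.9 CPM in the other 3 lines, whose ranges lay close together. For TAP2 the levels were 113 to 126 CPM in DU145, 30.1 to 33.6 in C4-2, 22.3 to 27.2 in C4-2B and 8.92 to 9.38 in 22Rv1. TAPBP was at 148 to 162 CPM in DU145 and 22.0 to 33.6 CPM elsewhere. The immunoproteasome subunit PSMB9 was at 22.7, 19.9 and 22.8 CPM in DU145. It was at 3.63, 1.93 and 1.73 CPM in 22Rv1, 0.498, 0.942 and 0.298 in C4-2 and 1.04, 0.287 and 0.641 in C4-2B, where between 8.63 and 38 counts stood behind a value. NLRC5 was at 9.34 to 12.4 CPM in DU145, 1.65 to 3.41 in C4-2, 1.60 to 2.32 in C4-2B and 0.632 to 1.54 in 22Rv1.

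**Figure D1:**
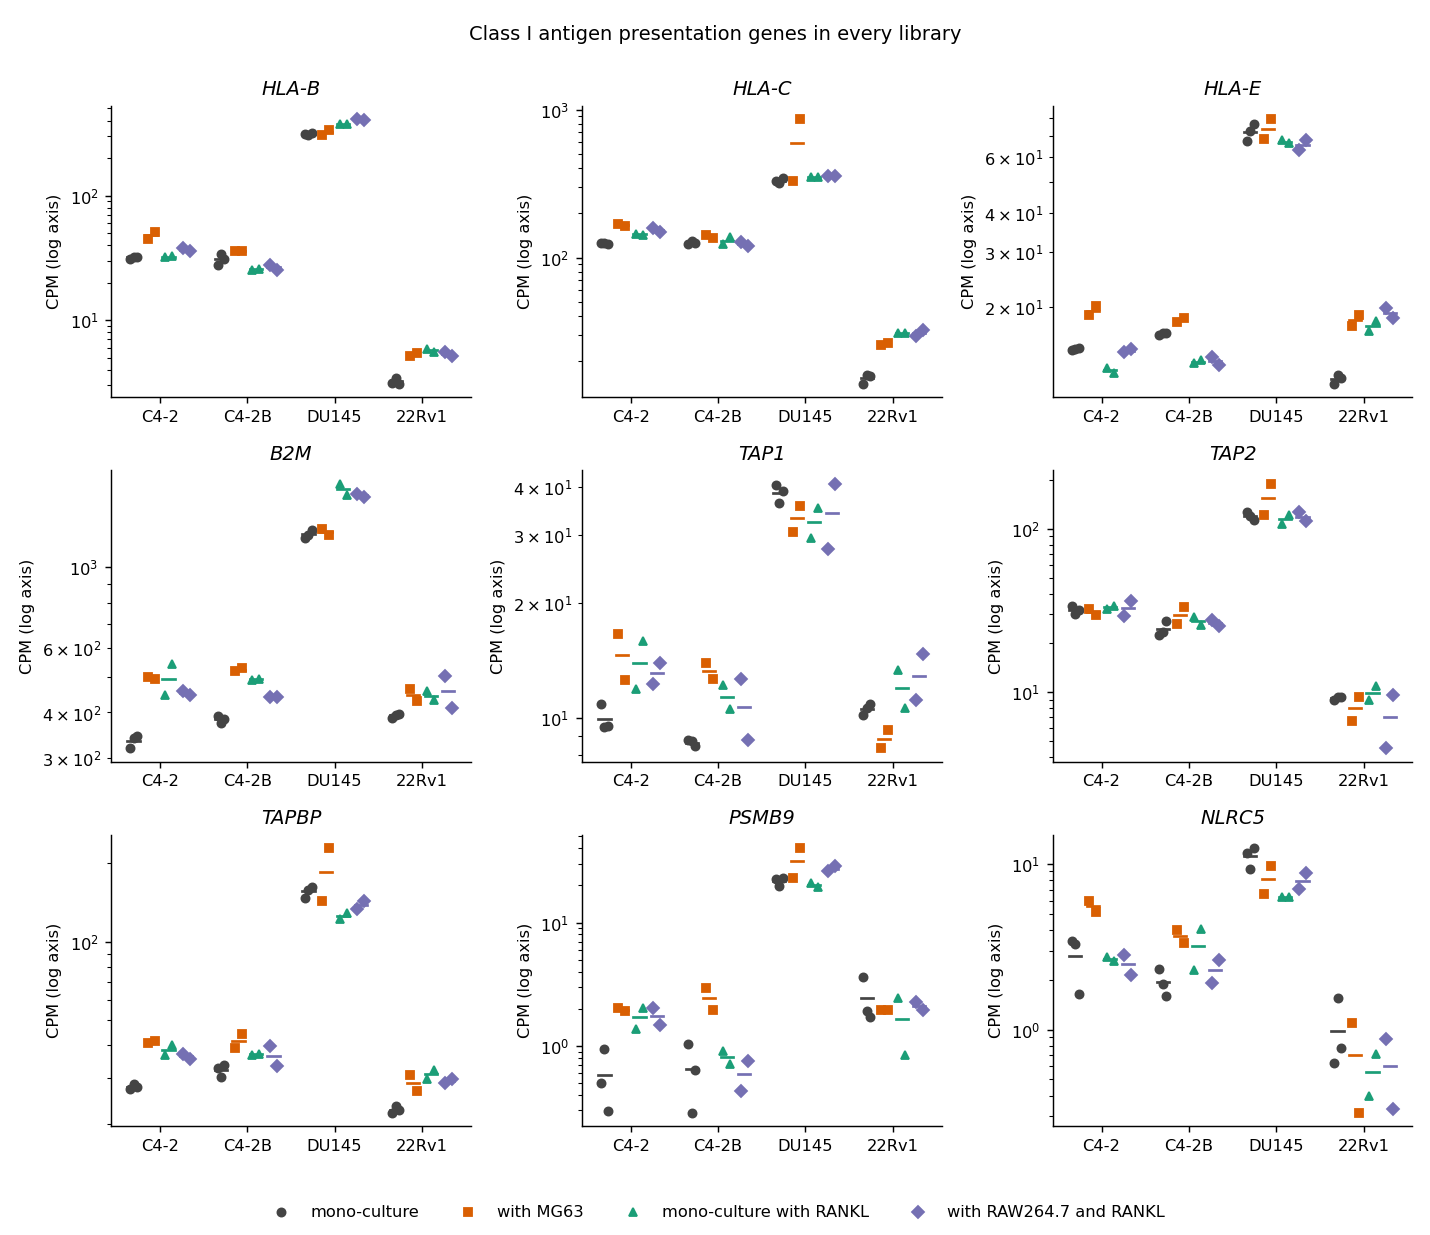
Level of each of the 9 genes in every library, in CPM on a log axis, by line and culture. Each point is 1 library and each bar a group mean (3 mono-cultures, 2 of every other culture). DU145 lies above the other lines in every panel, for example at 307 to 319 CPM for HLA-B against 3.09 to 3.44 in 22Rv1.

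All 9 members were higher in DU145 than in each other line in edgeR's quasi-likelihood fit, p-values being adjusted by Benjamini-Hochberg over 13437 genes. PSMB9 reached the 100 counts needed for testing only in DU145 libraries. Its entry rests on the line where it is high, so its calls for DU145 add no support. Of all genes tested, 39.3% were higher in DU145 than in C4-2, 39.7% than in C4-2B and 39.1% than in 22Rv1, and 39%, 39.3% and 40.5% were lower. DU145 minus 22Rv1 on the log2 scale was 6.62 ± 0.10 (SE) for HLA-B (98.7-fold, adjusted p = 8.9e-18), 4.45 ± 0.24 for HLA-C, 3.72 ± 0.15 for TAP2 and 1.67 ± 0.05 for B2M. Against C4-2 the differences ran from 1.37 ± 0.21 for HLA-C to 5.23 ± 0.37 for PSMB9 (37.5-fold). Compared with C4-2, 22Rv1 had 6 members lower, HLA-B (-3.36), HLA-C (-3.08), TAP2 (-1.83), NLRC5 (-1.56), HLA-E (-0.36) and TAPBP (-0.34), and 2 higher, PSMB9 (2.03 ± 0.42) and B2M (0.18 ± 0.05). Among all genes 35.6% were lower and 36.4% higher in that pair of lines. Compared with C4-2B, the same 6 were lower in 22Rv1, by 0.57 for HLA-E to 3.36 for HLA-B, against 35.7% of all genes, and PSMB9 was higher (1.74 ± 0.40) against 36.8%. Between the 2 related lines, C4-2B exceeded C4-2 in B2M (0.24 ± 0.05, adjusted p = 0.0034) and HLA-E (0.21 ± 0.07, adjusted p = 0.042), against 7.41% of all genes, and no member was lower, against 6.24%. The HLA-E call was lost in 11 of 20 fits that left out 1 library, at 0.20 to 0.23. Without the second MG63 co-culture of DU145, TAPBP was also higher in C4-2B (0.27, adjusted p = 0.00086) and TAP2 lower (-0.34, adjusted p = 0.0073).

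Per length of the longest coding transcript (1705 bases for B2M), B2M had the highest level of the members and HLA-C the second highest in the mono-cultures of all 4 lines, and NLRC5 the lowest. All B2M transcripts with counts in the table were shorter, however, at 407 to 1220 bases. A line's average of 40.6% to 41.4% of the B2M counts lay on the processed transcript ENST00000559220. A further 31.1% to 37.3% and 19.5% to 25.3% lay on ENST00000557901 and ENST00000561424, both annotated for nonsense-mediated decay. The levels per length therefore rest on the length chosen. With each B2M transcript divided by its own length, an alternative chosen after seeing the data, B2M was at 638 to 2223 CPM per kb on average in the 4 lines and still above the others. On the length of the coding transcript B2M reached 723 CPM per kb in DU145, 230 in 22Rv1, 225 in C4-2B and 197 in C4-2. On the same scale HLA-C reached 213, 9.83, 81.2 and 80.5 in those lines, and HLA-B reached 203 in DU145, 2.08 in 22Rv1 and 20.6 in C4-2. The ratio of B2M to the sum of the 3 heavy chains per kb was 13.4 to 14.7 in 22Rv1 and 1.61 to 2.22 in the other 3 lines, and with the own lengths of the B2M transcripts it was 5.02 to 6.78 on average in those 3 lines and again higher in 22Rv1. In 22Rv1 the ratio was 9.06 and 10.2 with MG63, 8.34 and 8.95 with RANKL alone and 7.72 and 9.76 with RAW264.7, below every mono-culture. In the C4-2 pair it moved the other way. In C4-2 it was 1.76 to 1.90 in mono-culture and 1.99 to 2.70 in the other cultures, and in C4-2B 1.97 to 2.22 and then 2.46 to 2.87. In DU145 it was 1.61 to 1.66 in mono-culture, 1.71 and 0.896 with MG63 and 1.78 to 2.02 with RANKL or RAW264.7.

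The levels of the heavy chains depend on which reference transcripts the reads were given to. The deposited table holds 47 transcripts of HLA-B, 81 of HLA-C and 21 of HLA-E, of which 7, 9 and 3 are in the primary annotation of GENCODE 29. Outside that annotation lay 98.6% to 100% of the HLA-B counts in C4-2 and 98.7% to 100% in C4-2B, 57.3% to 76.1% in DU145 and 3.01% to 35.2% in 22Rv1. For HLA-C the share was at least 98.9% in C4-2, C4-2B and DU145 and 8.15% to 22.8% in 22Rv1. In most lines 1 transcript, inside or outside that annotation, held most of the counts of HLA-B and of HLA-C. In C4-2 and C4-2B ENST00000424832 carried on average 70.3% and 71.2% of the HLA-C counts, in DU145 ENST00000420206 carried 90.4%, and in 22Rv1 ENST00000376228, a primary transcript, carried 80.2%. HLA-B in the C4-2 pair lay on ENST00000425848 (92.2% and 89.4%) and in 22Rv1 on the primary transcript ENST00000412585 (75.7%). In DU145 HLA-B had no such transcript, its leading one being the primary retained intron ENST00000481849 with 32.0%, followed by ENST00000450871 with 22.0% and ENST00000472294 with 13.9%. HLA-E counts lay outside the primary annotation at 99.7% to 100% in every line, with 4 transcripts of equal counts holding 21.8% to 25% each, and B2M and NLRC5 had no such transcript. With the primary transcripts alone, 22Rv1 minus C4-2 became 4.67 for both HLA-B and HLA-C on the log2 scale, in place of -3.36 and -3.08. The order of the lines in these genes therefore holds for the sum over all transcripts only, which was used throughout.

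**Figure D2:**
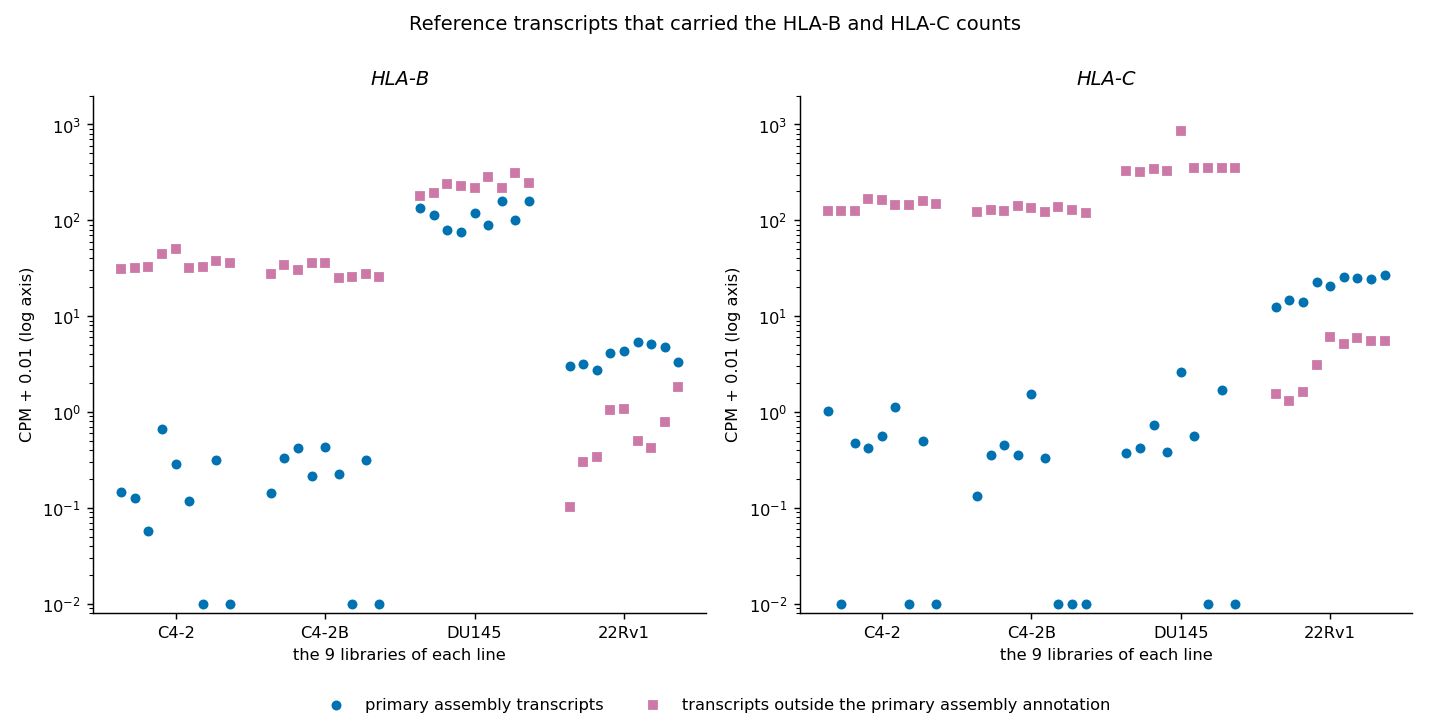
Level of HLA-B and HLA-C on transcripts inside and outside the primary annotation of GENCODE 29, by line. Values are CPM plus a small constant on a log axis, with 1 point of either kind per library (9 libraries a line). The share of HLA-C counts outside is 98.9% or more in 3 lines and 8.15% to 22.8% in 22Rv1.

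Reads can also be shared between genes. Of the 31-base words in the reference transcripts, 15.1% of those in HLA-B, 19.3% in HLA-C and 11.5% in HLA-E also occurred in a transcript of another gene, as did 33.0% in TAP2, 12.3% in PSMB9, 11.5% in TAPBP and 1.69% in TAP1. How far such words move the estimated counts of these 7 genes was not tested. No word of B2M or NLRC5 was shared.

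With MG63, the light chain B2M rose by 1.23 to 1.60 times in C4-2, C4-2B and 22Rv1, and no member was called lower than in mono-culture. The loading factor TAPBP and the heavy chains HLA-B and HLA-E rose in C4-2 and 22Rv1, and HLA-C in 22Rv1 by 1.85 times, while none of these was called in C4-2B. TAP1 and PSMB9 rose in the C4-2 pair and were not called in DU145 or 22Rv1. This comparison was the question of the study: what OB-like cells change in BPCa and in LPCa cells. In C4-2, 6 of 9 members were higher than in mono-culture, against 5.3% of all genes, and in C4-2B 3 of 9 against 3.52%. In DU145 2 of 9 were higher against 15.2% of all genes, and in 22Rv1 5 of 9 against 11.2%. None was lower, where 4.79%, 3.89%, 15.3% and 9.18% of all genes were. At the thresholds of the study, a fold above 2 and an unadjusted p under 0.05, 3 of the 36 gene-by-line differences were called higher, against 1.91% over all genes and lines. The median log2 difference over the 9 members was 0.68 in C4-2, 0.44 in C4-2B, 0.10 in DU145 and 0.30 in 22Rv1, and over all genes it was -0.01 in C4-2, -0.06 in DU145 and closer to 0 in the other lines.

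B2M in C4-2 was 319, 341 and 345 CPM in mono-culture and 501 and 496 with MG63. In C4-2B it was 392, 375 and 384 CPM and then 521 and 529, and in 22Rv1 386, 394 and 397 and then 464 and 431. In these 3 lines every MG63 co-culture lay above every mono-culture, while in DU145 the values were 1205, 1224 and 1268 against 1272 and 1228. The log2 differences were 0.68 ± 0.06 (1.60-fold, adjusted p = 1.5e-06), 0.51 ± 0.06 (1.43-fold, adjusted p = 4.7e-05), 0.30 ± 0.06 (1.23-fold, adjusted p = 0.0013) and, in DU145, 0.09 ± 0.06 (adjusted p = 0.22). The change differed between the lines (F = 21.1, adjusted p = 0.00067), and the mean of C4-2 and C4-2B exceeded that of DU145 and 22Rv1 by 0.40 ± 0.06 (adjusted p = 0.00044). Against the mono-cultures with RANKL, where B2M was 448 and 543 CPM in C4-2 and 492 and 494 in C4-2B, the same co-cultures differed by 0.03 ± 0.08 and 0.06 ± 0.08 (adjusted p = 0.89 and 0.77). In C4-2 the MG63 values of B2M lay between those with RANKL, and in C4-2B they lay above them without a call.

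Among the heavy chains, HLA-B in C4-2 went from 31.1, 32.1 and 32.3 CPM to 44.7 and 51.1, a log2 difference of 0.70 ± 0.09 (1.62-fold, adjusted p = 7.3e-05). HLA-E in C4-2 was 14.6, 14.8 and 14.8 CPM and 18.9 and 20.1 with MG63 (0.52 ± 0.08, adjusted p = 0.00036). The groups did not overlap in either gene. In contrast to B2M, both also stood above the mono-cultures with RANKL, which had 31.8 and 32.7 CPM of HLA-B and 12.9 and 12.3 of HLA-E. There the differences were 0.59 ± 0.09 for HLA-B (adjusted p = 3.9e-05) and 0.65 ± 0.09 for HLA-E (adjusted p = 7.8e-06). Only these 2 members of the 9 were called in C4-2 against this control, where 4.89% of all genes were higher. C4-2B gave the same 2, HLA-B by 0.45 ± 0.09 (35.9 and 35.9 CPM against 25.4 and 25.8, adjusted p = 0.0018) and HLA-E by 0.40 ± 0.09 (17.9 and 18.4 against 13.3 and 13.6, adjusted p = 0.0033), where 4.23% of all genes were higher. No member was lower in these lines, against 5.37% and 3.4% of all genes. Against the C4-2B mono-cultures without RANKL, at 27.6, 34.2 and 31 CPM of HLA-B and 16.3 to 16.6 of HLA-E, they were not called by edgeR (0.28 ± 0.09 and 0.20 ± 0.08, adjusted p = 0.072 and 0.13). HLA-B in C4-2B was called there by DESeq2 (0.29, adjusted p = 0.049), with all 36 libraries fitted (0.26, adjusted p = 0.031) and without the second MG63 co-culture of DU145 (0.27, adjusted p = 0.031). Leaving that library out of the comparison with RANKL added HLA-C (0.22, adjusted p = 0.008) and NLRC5 (1.09, adjusted p = 0.046) in C4-2, where 8.5% of all genes were then higher, and no member in C4-2B.

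HLA-C in C4-2 was 125, 126 and 124 CPM and 167 and 164 with MG63, without overlap, and in C4-2B 124, 129 and 126 and then 142 and 136. The log2 differences of 0.51 ± 0.23 and 0.20 ± 0.23 were not called (adjusted p = 0.18 and 0.69), with an SE from the spread over all 20 libraries, those of DU145 with MG63 at 330 and 864 CPM included. Without the second of these, the SE in C4-2 was 0.05 and the call was made (0.52, adjusted p = 1.1e-06), and so it was in C4-2B (0.19 ± 0.05, adjusted p = 0.0089). In 22Rv1 the 3 heavy chains rose together. HLA-B was 3.11, 3.44 and 3.09 CPM and 5.19 and 5.42 with MG63, HLA-C 14.1, 16.1 and 15.7 and then 25.7 and 26.6, and HLA-E 11.4, 12.1 and 11.9 and then 17.5 and 19. Their log2 differences were 0.83 ± 0.13 (1.78-fold, adjusted p = 0.00038), 0.88 ± 0.26 (1.85-fold, adjusted p = 0.024) and 0.73 ± 0.08 (1.65-fold, adjusted p = 1.3e-05). The mono-cultures of 22Rv1 with RANKL lay in the same range, 5.83 and 5.59 CPM for HLA-B, 30.7 and 30.8 for HLA-C and 16.8 and 18.1 for HLA-E. No member was called in 22Rv1 against this control by edgeR, at differences from -0.37 for TAP1 to 0.51 for NLRC5, and 8.02% of all genes were higher and 7.26% lower there.

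In DU145 the calls came from 1 library. HLA-C was 327, 319 and 345 CPM in mono-culture and 330 and 864 with MG63 (0.92 ± 0.22, adjusted p = 0.0071), and TAP2 126, 121 and 113 and then 121 and 190 (0.44 ± 0.15, adjusted p = 0.034). The higher value is each time that of the second co-culture, the one that stood apart in GC content, and its HLA-C lay at 767 CPM on ENST00000420206 against 288 in the first. TAPBP (143 and 229 CPM) and PSMB9 (23.0 and 40.0) were split in the same way without a call. Without that library no member was called in DU145 (HLA-C 0.08 ± 0.06 and TAP2 0.09 ± 0.11, with the other MG63 co-culture taken to vary like the rest), and 7.05% of all genes were higher there. In the other lines the counts became 8, 7 and 5 members in C4-2, C4-2B and 22Rv1, against 13.1%, 9.62% and 19.6% of all genes. Against mono-cultures with RANKL, DU145 with MG63 had HLA-C, TAP2 and TAPBP higher (0.78, 0.45 and 0.58, TAP2 just inside the threshold), against 19.4% of all genes, and HLA-B and B2M lower (-0.21 and -0.38), against 17.1%. Without the second co-culture the 3 higher calls were lost (-0.11, 0.06 and 0.17), and HLA-B and B2M were lower by 0.31 and 0.38 (-0.31 ± 0.08 and -0.38 ± 0.09, adjusted p = 0.0042 and 0.0019), against 13% of all genes.

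Of the transporter and loading genes, TAP1 and TAPBP moved and TAP2 did not in C4-2. TAP1 was 10.8, 9.49 and 9.53 CPM in C4-2 and 16.6 and 12.6 with MG63, and in C4-2B 8.75, 8.69 and 8.44 and then 13.9 and 12.7. The log2 differences were 0.66 ± 0.11 (1.58-fold, adjusted p = 0.001) and 0.69 ± 0.11 (1.61-fold, adjusted p = 0.0015). In 22Rv1 and DU145 TAP1 with MG63 lay below every mono-culture without a call, at 8.34 and 9.33 CPM against 10.2 to 10.9, and 30.6 and 35.7 against 36.4 to 40.4 (both -0.15, adjusted p = 0.41 and 0.26). This difference between lines was itself called (F = 18.8, adjusted p = 0.001), and the C4-2 pair exceeded the other pair by 0.83 ± 0.11 (adjusted p = 0.00035). TAPBP was 27.1, 28.4 and 27.6 CPM in C4-2 and 41.0 and 41.5 with MG63 (0.68 ± 0.13, adjusted p = 0.003), and rose in 22Rv1 from 22.0, 23.4 and 22.6 to 30.9 and 26.6 (0.46 ± 0.14, adjusted p = 0.026). In C4-2B it was 32.7, 30.2 and 33.6 and then 39.2 and 44.2, without overlap but not called (0.44 ± 0.13, adjusted p = 0.054), and called without the second DU145 co-culture (0.43 ± 0.06). Against the mono-cultures with RANKL, TAP1 differed by 0.10 in C4-2 and 0.20 in C4-2B and TAPBP by 0.13 in C4-2 and -0.027 in 22Rv1, none of them called (adjusted p = 0.84, 0.64, 0.66 and 0.94). TAP2 in C4-2 was 33.6, 30.1 and 31.8 CPM and 32.2 and 29.6 with MG63, a difference of 0.06 ± 0.16. In C4-2B it was 22.3, 23.3 and 27.2 CPM and then 26.3 and 33.1, an overlap, and not called (0.35 ± 0.16, adjusted p = 0.22), but called without the second DU145 co-culture (0.35 ± 0.11, adjusted p = 0.032).

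PSMB9 and NLRC5 had the largest fitted changes in the C4-2 pair on the fewest counts. PSMB9 in C4-2 was 0.498, 0.942 and 0.298 CPM and 2.01 and 1.92 with MG63, and in C4-2B 1.04, 0.287 and 0.641 and then 2.95 and 1.95. Behind these values stood 8.63 to 38 counts in mono-culture and 26.8 to 41.3 with MG63, and the groups did not overlap in either line. The log2 differences were 1.92 ± 0.52 (3.80-fold, adjusted p = 0.027) and 1.92 ± 0.49 (3.78-fold, adjusted p = 0.024), and the C4-2 pair exceeded DU145 and 22Rv1 by 1.73 ± 0.45 (adjusted p = 0.024). Each call was lost in 4 of the 20 fits that left out 1 library, at 1.60 to 1.95 in C4-2 and 1.59 to 2.18 in C4-2B. NLRC5, the transactivator of the family, was 3.41, 3.27 and 1.65 CPM in C4-2 and 5.94 and 5.14 with MG63 (1.1 ± 0.34, adjusted p = 0.052), and in C4-2B 2.32, 1.89 and 1.60 and then 3.97 and 3.34 (0.98 ± 0.37, adjusted p = 0.12). By edgeR it was not called in a single line, while the difference between the line pairs was, at 1.35 ± 0.40 (adjusted p = 0.043). NLRC5 in C4-2 was called by DESeq2 (1.12, adjusted p = 0.018), with all 36 libraries fitted (adjusted p = 0.023) and without the second DU145 co-culture (1.1 ± 0.32, adjusted p = 0.02). Against the mono-cultures with RANKL the values were 1.53 ± 0.58 for PSMB9 in C4-2B and 0.29 ± 0.52 in C4-2, neither called (adjusted p = 0.12 and 0.83).

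**Figure D3:**
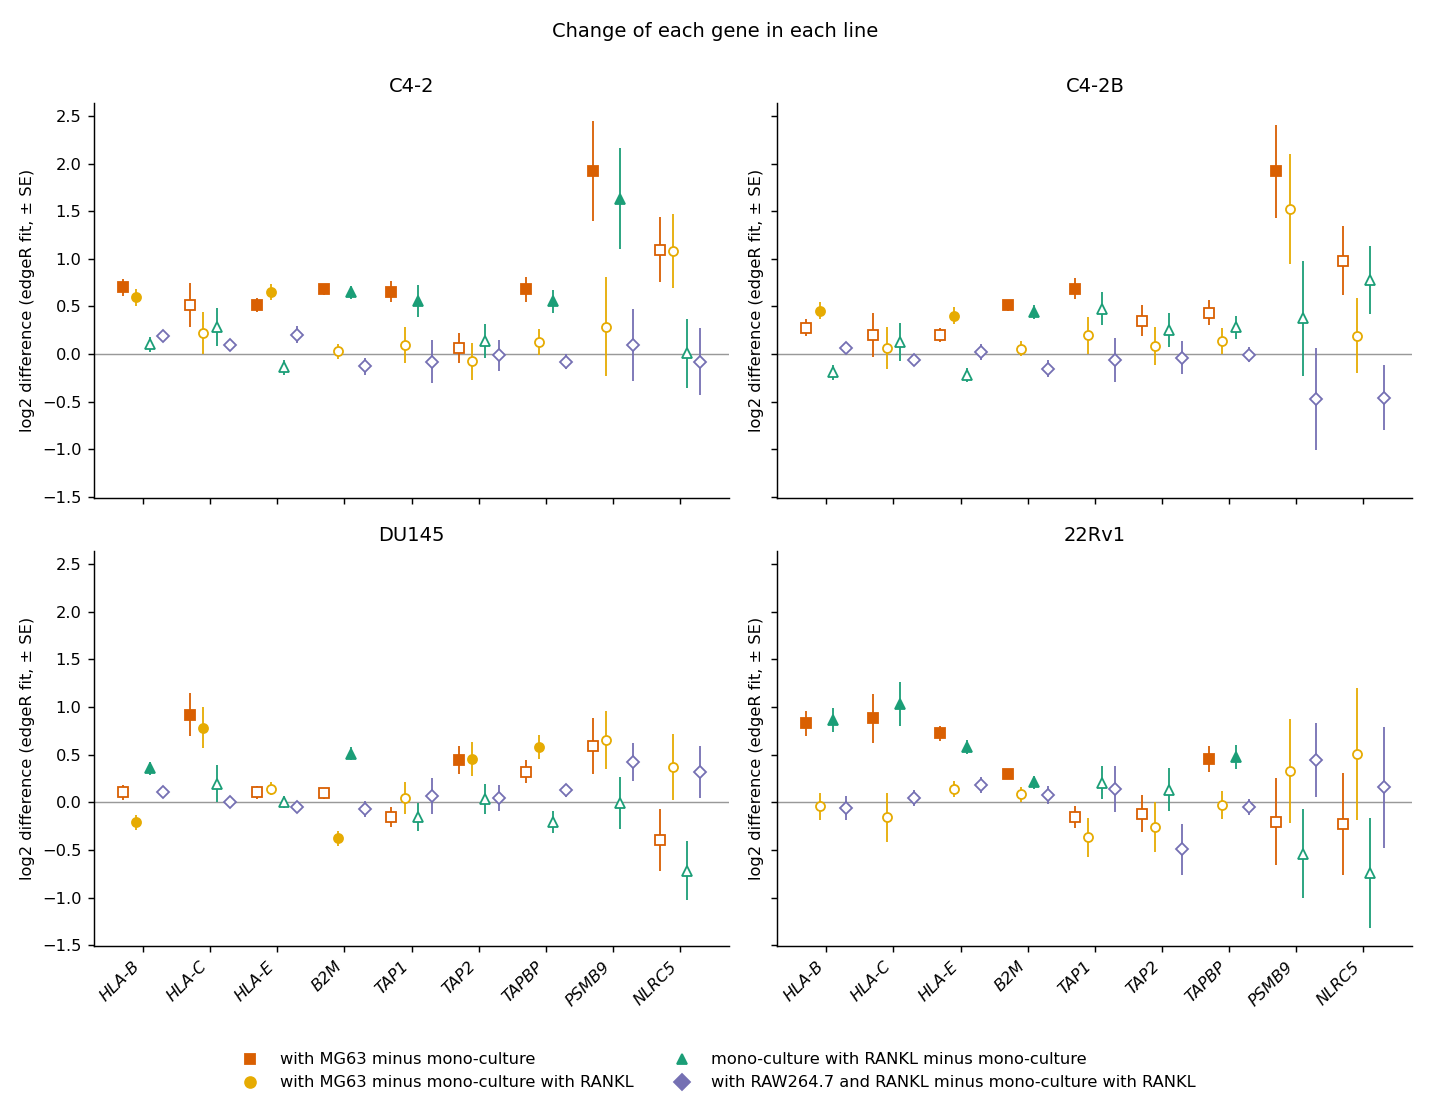
Log2 difference of each gene in each line with its SE (edgeR), for MG63 co-culture against mono-culture and against mono-culture with RANKL, for RANKL against none and for RAW264.7 with RANKL against RANKL alone. Filled symbols passed an adjusted p of 0.05. In C4-2, B2M is at 0.68 with MG63 and 0.65 with RANKL, whereas HLA-B is at 0.70 and 0.10, and every RAW264.7 symbol is open.

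A test of the MG63 change across the 4 lines called HLA-B, HLA-E, B2M and TAP1 of the 9 members, and 14.5% of all genes. For HLA-B (F = 12.4, adjusted p = 0.0052) and HLA-E (F = 14.5, adjusted p = 0.0029) the lines with a call were C4-2 and 22Rv1, 1 from each pair, and the mean of the C4-2 pair differed from that of the other pair by 0.02 ± 0.10 and -0.06 ± 0.08. B2M, TAP1, PSMB9 and NLRC5 differed between the pairs, with 9.85% of all genes called. Without the second DU145 co-culture the test across lines called 8 members, all but TAP2, and 24.3% of all genes. Between the pairs TAPBP was then called as well (0.35 ± 0.06, adjusted p = 0.0018), with 12.6% of all genes. The 10 mesenchymal markers that MG63 cells could bring, with the collagen genes COL1A1 and COL1A2 among them, overlapped between co-cultures and mono-cultures in C4-2 and DU145, while in C4-2B their sum lay below every mono-culture with MG63. They summed to 5.78 to 6.77 CPM in C4-2 mono-cultures and 4.38 to 8.20 with MG63, to 5.07 to 5.28 and 3.71 to 4.58 in C4-2B, and to 2.87 to 5.43 and 3.59 to 6.33 in DU145. In 22Rv1 they summed to 36.2 to 38.9 CPM and to 52.7 to 54.4 with MG63, without overlap. Of these sums TWIST1 held 27.3 to 30.4 and 40.6 to 43.7, and the other markers are not given singly. Whether RNA of MG63 cells had a part in this rise was not tested. In RNA from a whole well, more transcript per cell and more cells that express a gene cannot be told apart.

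Of the regulators, IRF1 was higher with MG63 in the C4-2 pair. IRF1, an interferon-induced factor that binds ISRE sites, was 1.37, 1.77 and 1.12 CPM in C4-2 mono-cultures and 6.51 and 4.56 with MG63. In C4-2B it was 1.33, 1.2 and 0.863 and then 3.70 and 4.27, in DU145 23.4, 23.8 and 25.4 and then 30.1 and 31.4, and in 22Rv1 1.79, 2.14 and 1.64 and then 1.57 and 1.35. The co-cultures lay above all mono-cultures in the first 3 lines and below them in 22Rv1. The log2 differences were 2.07 ± 0.19 (4.21-fold, adjusted p = 6e-06), 1.87 ± 0.21 (3.66-fold, adjusted p = 6.6e-05), 0.42 ± 0.15 (adjusted p = 0.041) and -0.21 (adjusted p = 0.63). The DU145 call was lost without the second co-culture (0.39 ± 0.17, adjusted p = 0.14). Unlike B2M, IRF1 also exceeded the mono-cultures with RANKL, at 1.19 and 1.73 CPM in C4-2 and 0.996 and 1.16 in C4-2B, by 1.94 ± 0.25 and 1.87 ± 0.27 (adjusted p = 4.7e-06 and 5.3e-05), and in DU145 the difference was not called (0.30 ± 0.16, adjusted p = 0.13). The change differed between the line pairs by 1.87 ± 0.20 (adjusted p = 5.7e-05).

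The other genes of the pathway were counted from lists, to be read beside the 5.3%, 3.52%, 15.2% and 11.2% of all genes that were higher with MG63 in C4-2, C4-2B, DU145 and 22Rv1 and the 4.79%, 3.89%, 15.3% and 9.18% that were lower. Of 8 proteasome genes, 3 were higher with MG63 in each line and 1 lower in DU145. PSMB8, the immunoproteasome subunit encoded next to TAP1, was 0.864, 0.861 and 1.03 CPM in C4-2 and 4.37 and 3.63 with MG63 (2.23 ± 0.31, 4.69-fold, adjusted p = 0.0002), and 1.07, 2.18 and 1.66 in C4-2B and then 5.04 and 4.39 (1.61 ± 0.28, adjusted p = 0.0022). In C4-2B it also exceeded the mono-cultures with RANKL (1.51 ± 0.35, adjusted p = 0.0076), and in C4-2 it did not pass (0.37 ± 0.32). The subunits PSMB10 and PSMB5 were higher in DU145 (1.48 ± 0.32 and 0.58 ± 0.12), PSMB10 at 38.7 CPM in the first co-culture and 158 in the one that stood apart. Without the latter no proteasome gene was called in DU145 (PSMB10 0.16 and PSMB5 0.20), and 5 were higher in C4-2 and 5 in 22Rv1, against 13.1% and 19.6% of all genes. Of 7 genes of peptide loading and trimming, 2 were higher in C4-2, the peptide-trimming enzyme ERAP2 (0.98 ± 0.28) and the tapasin relative TAPBPL (0.54 ± 0.16), while 3 were lower in 22Rv1, the chaperones HSPA5 (-0.86 ± 0.07, adjusted p = 1.7e-06), CANX (-0.51) and PDIA3 (-0.44). PDIA3 was also lower in C4-2B (-0.38, adjusted p = 0.038) and CANX in DU145 (-0.51, adjusted p = 0.0048). The list medians were 0.11 in C4-2 and -0.44 in 22Rv1, beside about 0 over all genes. Without the second DU145 co-culture 3 were higher and 2 lower in C4-2, 1 higher and 3 lower in C4-2B, 1 lower in DU145 and 4 lower in 22Rv1, against 10.7%, 10.7%, 7.85% and 17% of all genes lower.

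Of 9 tested other class I and class I-like chains, 2 were higher in C4-2, HLA-F (0.66 ± 0.17, 4.81 to 7.05 CPM on average) and the stress ligand MICA (0.27 ± 0.07), and none in the other lines. Without the second DU145 co-culture MICA (0.34, adjusted p = 0.039) and MICB (0.96, adjusted p = 0.028) were also higher in 22Rv1. Of 12 transcriptional regulators, IRF1 alone was higher in C4-2, C4-2B and DU145, 1 was lower in 22Rv1, and 4 were lower in DU145, among them the Y box factors NFYA and NFYB (-0.42 ± 0.15 and -0.40 ± 0.06). Without the second DU145 co-culture IRF1 and NFYA were not called in DU145 (NFYA -0.05) and NFYB was (-0.38 ± 0.07, adjusted p = 0.003), and 2 regulators were lower in C4-2B, 2 in DU145 and 3 in 22Rv1, against 10.7%, 7.85% and 17% of all genes. Of 7 interferon receptor and kinase genes, the receptor chain IFNAR1 was higher in C4-2 (0.32 ± 0.09) and lower in DU145 (-0.34 ± 0.09), the latter not without that library (-0.15, adjusted p = 0.28), and no other was called. Without it JAK1 was lower (-0.84, adjusted p = 0.009) and IFNAR2 higher (0.43, adjusted p = 0.042) in 22Rv1. Of 5 tested class II genes, 2 were higher in C4-2, HLA-DQB1 (1.42 ± 0.43) and HLA-DRB1, whose mono-cultures lay under the 3 counts taken as detection limit. HLA-DQB1 was lower in 22Rv1 (-1.36 ± 0.34), and without the second DU145 co-culture it was higher in C4-2B (2.12, adjusted p = 0.037).

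**Figure D4:**
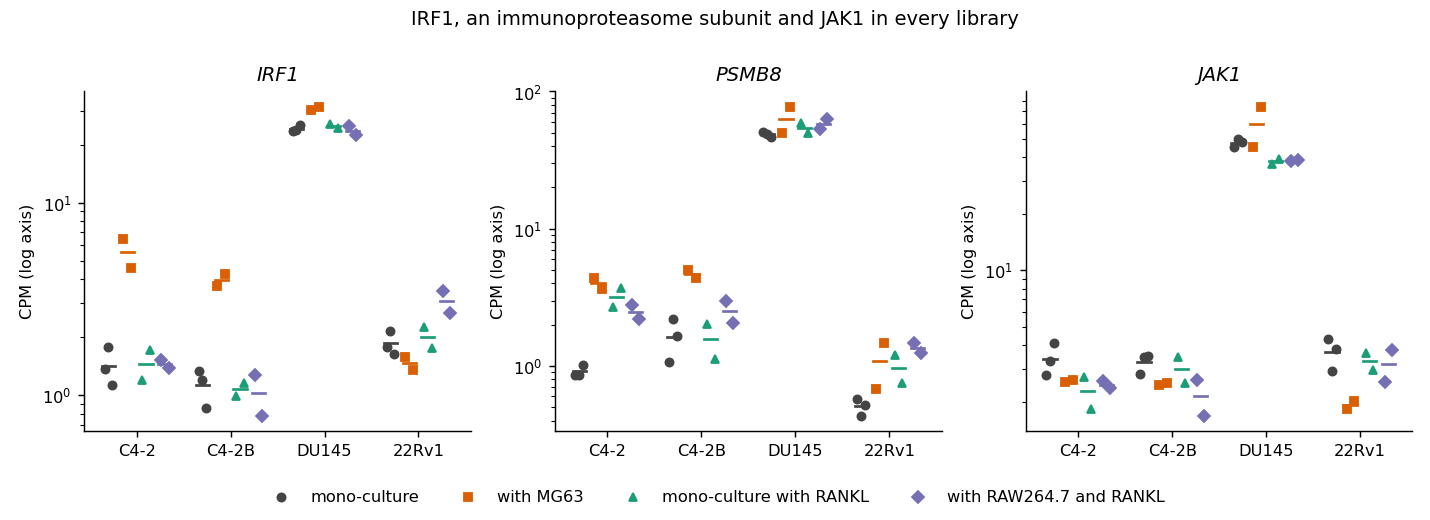
Level of IRF1, PSMB8 and JAK1 in every library, in CPM on log axes, by line and culture, with group means as bars. IRF1 in C4-2 lies at 4.56 and 6.51 CPM with MG63 and at 1.12 to 1.77 in mono-culture, and DU145 is the highest line in all 3 panels.

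In mono-culture IRF1 and some partners of the members were also highest in DU145. Against each other line, 3 or 4 of the 8 proteasome genes were higher in DU145 and 2 or 3 lower, and of the 7 loading and trimming genes 3 or 4 were higher and 3 lower. Of 9 other class I chains 6 to 9 were higher and 0 or 1 lower, of 12 regulators 5 or 6 and 3, and of 7 interferon receptor and kinase genes 4 or 5 and 0 or 1. These stand beside 39.1% to 39.7% of all genes higher and 39% to 40.5% lower. IRF1 was 4.07 ± 0.16 higher in DU145 than in C4-2 on the log2 scale, 4.33 ± 0.16 than in C4-2B and 3.73 ± 0.16 than in 22Rv1. The kinase JAK1, which the interferon receptors need, averaged 47.7 CPM in DU145 and 3.40, 3.25 and 3.69 in C4-2, C4-2B and 22Rv1. PSMB8 averaged 49 CPM against 0.914, 1.64 and 0.501, and ERAP2 40.3 against 1.19, 1.24 and 0.812. MICB, a ligand of the natural killer cell receptor NKG2D, averaged 50.3 CPM in DU145 and at most 0.723 in the others. Not every partner was highest in DU145, where the chaperone PDIA3 and the proteasome activator PSME1 were lower than in each other line (PDIA3 -0.58 to -1.17, PSME1 -0.25 to -0.94).

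RANKL alone was followed by a rise of B2M in all 4 lines, by heavy chains in 22Rv1 and by TAP1, TAPBP and PSMB9 in C4-2. These comparisons share their mono-cultures, of about 2.46 times the depth, with those of MG63, so the calls of the 2 sets are not independent. With RANKL B2M was 448 and 543 CPM in C4-2, 492 and 494 in C4-2B, 1696 and 1576 in DU145 and 458 and 432 in 22Rv1. The log2 differences from mono-culture were 0.65 ± 0.07 (adjusted p = 3e-07), 0.44 ± 0.07 (adjusted p = 8.7e-05), 0.51 ± 0.07 (adjusted p = 3.1e-06) and 0.21 ± 0.07 (adjusted p = 0.04). The last was lost in 5 of 21 fits without 1 library. In C4-2 4 members were higher, against 9.16% of all genes, and besides B2M they were TAP1 (11.9 and 15.9 CPM, 0.56 ± 0.17), TAPBP (36.7 and 40.0 CPM, 0.55 ± 0.12) and PSMB9 (1.38 and 2.03 CPM, 1.63 ± 0.53). PSMB9 lost its call in 4 of 21 fits without 1 library and TAP1 in 3. In C4-2B B2M was the 1 member called, against 6.07% of all genes.

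In 22Rv1 5 members were higher with RANKL, against 8.9% of all genes. HLA-B was 5.83 and 5.59 CPM (0.86 ± 0.13, adjusted p = 3.3e-05), HLA-C 30.7 and 30.8 (1.03 ± 0.23, 2.05-fold, adjusted p = 0.0024) and HLA-E 16.8 and 18.1 (0.58 ± 0.08, adjusted p = 6.6e-06), all above every mono-culture. B2M and TAPBP (29.7 and 32.3 CPM, 0.48 ± 0.13) were the others. In DU145 2 were higher against 16.9% of all genes, B2M and HLA-B, the latter at 373 and 375 CPM (0.36 ± 0.07, adjusted p = 0.0003). By edgeR no member was lower in any line, where 9.16%, 8.32%, 15.6% and 8.85% of all genes were in C4-2, C4-2B, DU145 and 22Rv1. These fits include the second MG63 co-culture of DU145. Without it there were 16 higher calls, the 12 above with HLA-C in C4-2 (0.29) and DU145 (0.19) and TAP1 (0.48) and TAPBP (0.28) in C4-2B, and 3 lower ones, HLA-E in C4-2B (-0.22, adjusted p = 0.044) and TAPBP (-0.21, adjusted p = 0.0031) and NLRC5 (-0.72, adjusted p = 0.0498) in DU145. Of all genes 14.8%, 11.5%, 22.6% and 14.1% were then higher and 14.1%, 13.6%, 20.4% and 14.1% lower in C4-2, C4-2B, DU145 and 22Rv1. At the thresholds of the study 2 of the 36 differences with RANKL were higher, against 1.96% over all genes and lines. DU145 with RANKL also differed from DU145 without it in genes outside the 9. The epithelial marker EPCAM was at 14.5 to 21.6 CPM in mono-cultures and 84.5 to 89.9 with RANKL, and CD74, the class II invariant chain, at 1.06 to 1.81 and 19 to 22. Their part in the DU145 differences was not tested.

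The RANKL change differed between lines for 5 members, HLA-B, HLA-E, B2M, TAP1 and TAPBP, where 32.6% of all genes were called, and for 8, all but TAP2, without the second MG63 co-culture of DU145, where 47.6% were. For HLA-B and HLA-E the C4-2 pair lay below DU145 and 22Rv1, by 0.66 and 0.47 on the log2 scale (differences of -0.66 ± 0.09 and -0.47 ± 0.07, adjusted p = 1.6e-05 and 6.2e-05), and for TAP1 above them (0.49 ± 0.17, adjusted p = 0.043). Between these pairs 16.5% of all genes were called. HLA-E in C4-2B was 13.3 and 13.6 CPM with RANKL against 16.3 to 16.6 without it, a difference of -0.22 ± 0.08 that was not called with all libraries (adjusted p = 0.064).

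RAW264.7 cells added nothing that passed the test. With RANKL in both arms and like depth, 0 of 36 gene-by-line differences passed edgeR's adjusted p of 0.05, and 3 had an unadjusted p under 0.05, HLA-B in C4-2 and DU145 and PSMB9 in DU145. DESeq2 also called 0. In C4-2, HLA-B was 31.8 and 32.7 CPM with RANKL and 37.6 and 35.9 with RAW264.7 (0.19 ± 0.06, adjusted p = 0.52). In DU145 HLA-B was 373 and 375 and then 412 and 401 (0.11), and PSMB9 20.9 and 19.2 and then 26.1 and 28.5 (0.42). The groups did not overlap in these 3, which were picked for their p. Over the 9 members the log2 differences ran from -0.13 to 0.21 in C4-2, -0.47 to 0.07 in C4-2B, -0.07 to 0.42 in DU145 and -0.49 to 0.44 in 22Rv1. Of all genes 0% were higher and 0.0174% lower in C4-2, 0.0694% each in C4-2B, 0.00868% and 0.0174% in DU145 and 0.00868% and 0% in 22Rv1. In a simulation of this comparison in C4-2, 93.0% of 200 genes changed 2-fold were recovered. Those genes were drawn above a floor of expected counts, so the rate does not cover smaller changes or genes of few counts. The change with RAW264.7 did not pass the test across lines for any member, where 0.0347% of all genes did, nor between the line pairs, where 0.0781% did. No list gene was called either. The 9 macrophage markers summed to 22.2 to 22.3 CPM in C4-2 with RAW264.7 and 23.0 to 25.2 with RANKL alone, with TYROBP at 0 in every library. These markers are human transcripts and RAW264.7 is a mouse line, so the sums cannot tell whether its RNA was present.

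Over the 16 group means, the genes outside the 9 whose log2(CPM + 1) followed the members' mean most closely, among 13454 genes, were OPTN, OSMR, CD83, PLCG2 and CUEDC1, each with a Pearson r of 0.99. The group means of DU145 enter this likeness. After the mean of each line was subtracted they were UST (r = 0.93), RARG (0.93), APOL2 (0.91), PSMB8 (0.87) and NPLOC4 (0.87). Among the members themselves r ran from 0.26 for TAP2 to 0.88 for TAPBP. A member enters the mean it is set against, so its r is not comparable with that of an outside gene. The points share libraries of unequal depth, so the values are given as a description.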

How the data were processed

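RNA from 36 cultures was read by strand-specific poly-A RNA-seq on a DNBSEQ-G400. The authors quantified transcripts with kallisto, and the deposited values are its estimated counts per transcript, with all samples in 1 table; the processing notes also name FastQC and hg19. The study's own analysis summarised transcripts with tximport into scaled TPM counts, which were not used here. Here 159837 transcripts were kept once each (2491 lines were repeats with equal values), and the counts of all transcripts with 1 HGNC symbol were summed to 27852 genes and rounded. Transcripts without a symbol, 0.526% to 0.764% of the counts, were left out of the tests but counted in the library totals. CPM are counts per 1000000 of the library total, at which 3 counts, the detection limit used, are at most 0.125 CPM in mono-cultures without RANKL and 0.313 CPM in the others.

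Each comparison was fitted with edgeR 4.0.16 (quasi-likelihood test, TMM, R 4.3.3), 1 mean per line and culture, keeping genes that reached 100 counts in any library fitted, and p-values were adjusted over all genes tested (threshold 0.05). MG63 co-cultures and lines were fitted on the 20 libraries without RANKL (13437 genes), RANKL on all 36 (13454 genes) and RAW264.7 on the 16 with RANKL (11525 genes). All 9 members passed this filter in each fit, PSMB9 only through libraries of DU145. Of 200 genes simulated with a 2-fold change, 89.5%, 88.0% and 93.0% were recovered in the 3 comparisons of cultures in C4-2. Alternatives were DESeq2 1.42.0, library size scaling, no filter, other sets of libraries, transcripts of the primary annotation only, a replicate block, fold thresholds like those of the study and each library left out. The second MG63 co-culture of DU145 was also left out of the fits on all libraries and of the pathway lists, a choice made after seeing the data. Levels per kb divide CPM by the longest coding transcript in GENCODE 29 rather than transcript by transcript, since transcripts outside that annotation had no length in it. Promoter windows and motifs come from RefSeq (GRCh38.p14).

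The 9 members, the pathway lists and the markers were chosen with earlier results of these data known. All 9 members are named in each comparison, at most 3 called genes of each list, by size of change, per kind of comparison, and always IRF1 (another gene that the rule names is not reported here). JAK1 and PSMB8 are among these.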

Additional observations from a re-analysis of the deposited data

Results flagged for a closer look

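Each value below comes from a test that the change with a culture was equal in the 4 lines (edgeR, F with 3 degrees of freedom), and each differed between lines at an adjusted p of 0.05. For MG63 against mono-culture these were HLA-B (F = 12.4), HLA-E (F = 14.5), B2M (F = 21.1) and TAP1 (F = 18.8). HLA-B and HLA-E were highest in 22Rv1 and C4-2, at log2 differences of 0.83 and 0.70 and of 0.73 and 0.52, and lowest in DU145, at 0.10 for both. B2M ran from 0.68 in C4-2 to 0.09 in DU145, and TAP1 from 0.69 in C4-2B to -0.15 in DU145 and 22Rv1.

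For RANKL against mono-culture the test called HLA-B (F = 18.7), HLA-E (F = 22.1), B2M (F = 6.80), TAP1 (F = 4.27) and TAPBP (F = 8.43). HLA-B was at 0.86 in 22Rv1 and -0.19 in C4-2B, HLA-E at 0.58 and -0.22 in the same lines. B2M was at 0.65 in C4-2 and 0.21 in 22Rv1, TAP1 at 0.56 in C4-2 and -0.15 in DU145, and TAPBP at 0.55 in C4-2 and -0.21 in DU145. The values below 0 were not called in their own line with all libraries, and HLA-E in C4-2B and TAPBP in DU145 were without the second MG63 co-culture of DU145. All 9 values use the deeper mono-cultures as reference.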

How the results depend on the processing

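Counts are gene-by-line calls of the 9 members. MG63 against mono-culture gave 16 higher and 0 lower. It gave 3 higher at the fold thresholds of the study, 5 with primary transcripts only and 7 higher and 2 lower against the RANKL mono-cultures, and 14 to 26 with 1 library left out, 26 without the first DU145 co-culture with MG63. RANKL gave 12 higher and 0 lower. It gave 2 higher at the fold thresholds and 7 with primary transcripts only, and 10 to 16 with 1 library left out. Lower calls with RANKL were 1 with no filter, 4 with library size only, 2 with the 20 mono-cultures fitted and 0 to 3 with 1 library left out, the 3 without the second DU145 co-culture with MG63, and HLA-B in C4-2B at -0.27 without its first mono-culture. Between lines 32 pairs were higher and 12 lower, 4 lower with primary transcripts only, and 31 to 34 higher and 10 to 13 lower with 1 library left out. The MG63 test across lines called 4 members and that of RANKL 5, and each called 8 without the second DU145 co-culture with MG63, a setting added after seeing the data. For RAW264.7 no alternative gave a call. In most settings the cause was not tested.

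Reversed values against the RANKL mono-cultures were HLA-B (-0.21) and B2M (-0.38) in DU145 and HLA-B (-0.043), HLA-C (-0.16) and TAPBP (-0.027) in 22Rv1. With primary transcripts only they were, for 22Rv1 minus C4-2, HLA-B and HLA-C (both 4.67) and TAPBP (0.019), for 22Rv1 minus C4-2B, HLA-B (3.23) and HLA-C (5.44), and HLA-C in DU145 minus C4-2 (-0.13) and minus 22Rv1 (-4.80). Of 4268 values for single genes 82 changed sign without a call in either setting. Calls of single genes that were lost with 1 library left out, beside those given above, were HLA-C and TAPBP with MG63 in 22Rv1 (4 of 20 fits each, 0.82 to 0.92 and 0.36 to 0.53), TAP2 with MG63 in DU145 (3 fits), TAPBP with RANKL in 22Rv1 (0.43), and between lines NLRC5 in 22Rv1 minus C4-2B (-0.93 and -0.87) and TAPBP in 22Rv1 minus C4-2 (-0.31).

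With replicate numbers as a block, RANKL gave 1 lower call, NLRC5 in DU145 (-0.85), and PSMB9 in C4-2 lost its calls with MG63 (1.84) and RANKL (1.55). Whether the numbers pair the libraries is not known from the labels. The 8 same-numbered pairs of each comparison correlated at -0.0329, 0.0186 and 0.0181 on average. For RAW264.7 both pairs of a line gave the same value, so these do not settle it. Library size only moved the median of all genes from -0.01 to -0.12 in C4-2 with MG63 and its calls from 712 higher and 644 lower to 463 and 1648, and members are to be read against that. Depth limits PSMB9 and NLRC5 outside DU145, and detection limits cover counting error only.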

Other observations

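Class II genes, which present peptides from outside the cell and are usually silent in epithelium, were counted from a list. With RANKL, of 6 tested genes 1 was higher in C4-2, 0 in C4-2B, 2 in DU145 and 1 in 22Rv1, and 1 was lower in DU145, beside 9.16%, 6.07%, 16.9% and 8.9% of all genes higher and 15.6% lower in DU145. The list median was -0.99 in C4-2, where HLA-DMA was called (0.60 ± 0.19, adjusted p = 0.032), and 0.23 to 0.30 in the other lines, and over all genes it was -0.02 to -0.01. CD74 in DU145 was 16.1-fold higher with RANKL than in mono-culture (4.01 ± 0.43 on the log2 scale, adjusted p = 1.1e-07, edgeR), HLA-DQB1 rose there as well (1.48 ± 0.30), and HLA-DQA1 fell (-0.42 ± 0.11, adjusted p = 0.0064). HLA-DQB1 averaged 17.3 CPM in 22Rv1 mono-cultures and 45.9 with RANKL (1.43 ± 0.24, adjusted p = 0.00015), while in mono-culture it averaged 0.916 in C4-2 and 0.220 in C4-2B.

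Other class I-like chains also differed in level between the lines. HFE averaged 16.9 CPM in DU145, 3.55 in C4-2, 4.24 in C4-2B and 0.291 in 22Rv1 in mono-culture. FCGRT, the neonatal Fc receptor, averaged 16.7 CPM in DU145, 4.14 in 22Rv1, 0.581 in C4-2 and 0.351 in C4-2B. The stress ligand MICA, which does not pair with the light chain, in 22Rv1 averaged 4.87 CPM in mono-culture and 9.82 with RANKL (1.04 ± 0.17, adjusted p = 7.3e-05).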
